A study of Mus musculus with 2 samples.

Results

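S100 proteins are small calcium-binding proteins, and 10 of their genes were followed here among the 20002 genes of a whole-kidney RNA sequencing table. The members were taken by gene symbol: S100a8 and S100a9, which neutrophils make in large amounts; S100a1, S100a6, S100a10, S100a11, S100a13 and S100g, which epithelial cells of the kidney can express; S100a4, known from fibroblasts and leukocytes; and S100b, known from glia and Schwann cells. All 10 were in the table. The question was how the neutrophil members differed between the control and the Reg-2 CKO kidney beside the epithelial members.

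The series held 2 libraries of mouse kidney, 1 per group. The CKO group is labelled as a conditional knockout of Regnase-2, the RNase encoded by Zc3h12b, in proximal tubules. The methods describe it as C57BL/6J mice given an adeno-associated virus of serotype 9 (AAV9) with a short hairpin RNA against Regnase-2, injected into the tail vein at 11 weeks of age. It is therefore a knockdown that relies on the tubular preference of the virus, and other kidney cells of the same sample were not sorted away. Controls received AAV9 with an empty vector by the vector methods and a control hairpin by the sequencing methods. Mice were 14 weeks old at sampling by the sequencing methods and 16 weeks old by the vector methods. Neither group received another treatment by its label, and whether a library came from 1 mouse or from several was not given in the sources used here.

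Deposited values started at 35 in the control and at 51 in the CKO-labelled library, so a floor of 34 and of 50 was subtracted from each column and the remainder was read as reads. This left 38851231 control reads and 43588721 CKO reads, the latter being those of the CKO-labelled library; the median gene had 284 and 513.5 reads. For scaling, the median gene ratio of control to CKO reads, 0.667, was applied to the CKO column, and a log2 ratio was taken after adding 1 read to each side. With 1 library per group no difference had a replicate check and no test was made. Intervals are 95% Clopper-Pearson intervals of the ratio of reads and cover counting error only.

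Zc3h12b, the targeted gene on chromosome X from 95711583 to 95932656, had 47 control reads and 59 CKO reads. Its log2 ratio was -0.25, with an interval from -0.83 to 0.33, and scaling to equal totals gave 0.16 and the deposited values themselves gave 0.42. The targeted gene therefore did not separate the libraries at this depth, and within this table the CKO group rests on its label. The tissue label was met by kidney markers. All 12 proximal tubule markers and all 12 distal and collecting duct markers were read, led by Slc27a2 with 157696 control and 100638 CKO reads and by Umod with 90047 and 187056.

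S100 proteins carry a pair of EF-hand loops, change shape when calcium binds and then hold target proteins, mostly as dimers. Inside cells they bind annexins, myosin and other partners, whereas S100A8 and S100A9, together called calprotectin, are also released and act on the receptors TLR4 and RAGE. In the kidney, S100G, also called calbindin-D9k, carries calcium through cells of the distal tubule, and S100A6 is known from dividing and injured epithelium.

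Of the 10 members, 3 reached 2-fold higher in the CKO-labelled library (S100a6, S100a9 and S100a4) and 0 reached 2-fold lower. A minimum of 10 scaled reads in either library was met by 17469 genes, of which 13.4% reached 2-fold higher and 5.35% reached 2-fold lower. The median log2 ratio of the 10 members was 0.73, beside 0.02 over the genes tested. S100b stayed under 10 scaled reads in both libraries and S100a8 reached them in the CKO-labelled library alone, so 9 members passed this minimum. Scaling to equal totals moved the median of the genes tested to 0.44 and the members that reached 2-fold higher to 7, and the values as deposited gave 0.59 and 6. Over all genes tested these settings gave 3870 higher and 437 lower (89.9% higher) and 3574 and 131 (96.5%), against 2334 and 934 (71.4%) with the main scaling, so the members' counts rose along with those of all genes. Set against these medians, S100a6 lay 3.36 above the median of the genes tested with the main scaling, and S100g fell by 0.50 against it. With the values as deposited S100a6 lay 3.22 above it and S100g fell by 0.48. Equal totals shift all genes nearly alike, so that setting cannot test these distances.

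**Figure D1:**
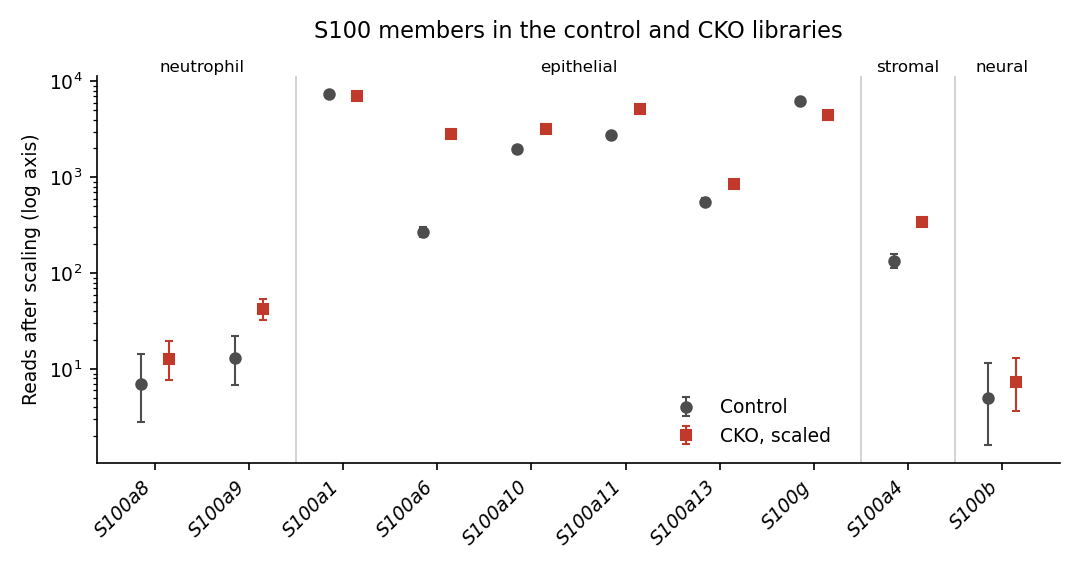
Reads of the 10 S100 members in the control library (circles) and in the CKO-labelled library after scaling (squares), on a log axis, with 95% Poisson intervals that cover counting error only. S100a8, S100a9 and S100b lie below 50 scaled reads in both libraries, and S100a6 shows the widest gap, from 270 to 2821 scaled reads.

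Bases before the start sites are shown for S100a6, S100a9 and S100a4, the members that reached 2-fold, so that the regions can be compared. S100a11, which did not reach 2-fold with the main scaling, was added for its match to TGANTCA, described below. The match of S100a8 is given by its position alone. The stretches shown are the 100 bases before each start site in RefSeq promoters of GRCm38.p6. They lie at chr3:90612794-90612893 (S100a6), chr3:93520396-93520495 (S100a11) and chr3:90603670-90603769 (S100a4) on the plus strand and at chr3:90695722-90695821 (S100a9) on the minus strand. Capitals mark matches to the TATA box TATAAA or to TGANTCA, the letters bound by AP-1, a factor that responds to stress and injury.
S100a6: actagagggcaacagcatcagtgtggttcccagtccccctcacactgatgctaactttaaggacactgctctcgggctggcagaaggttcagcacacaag
S100a11: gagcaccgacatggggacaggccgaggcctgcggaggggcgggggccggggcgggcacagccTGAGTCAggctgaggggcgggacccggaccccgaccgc
S100a4: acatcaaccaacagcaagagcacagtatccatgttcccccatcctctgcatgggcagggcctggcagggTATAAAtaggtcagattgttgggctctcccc
S100a9: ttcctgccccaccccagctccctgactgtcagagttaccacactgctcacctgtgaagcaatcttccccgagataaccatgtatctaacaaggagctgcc
Promoters were found for 9 of the 10 members, all except S100a10, and the 250 bases before the start were searched on both strands. TATAAA was found 31 bases before the start of S100a4 and 30 bases before that of S100a8, and 12.4% of all 32851 promoters held it. TGANTCA was found 38 and 136 bases before the start of S100a11, and 6.75% of promoters held it. The letters TTCNNNGAA, bound by STAT factors, occur in 7.02% of promoters and GGGNNTTCC, a form of the NF-kB site, in 4.98%, and neither was found in a member's window. Forms of the NF-kB site with another spacing were not searched, so their absence is not shown. No match overlapped another, and the windows of S100a6 and S100a9 held none of these letters, which says nothing of the factors themselves.

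The neutrophil members lay far below the median gene in both libraries. S100a8 (Gene ID 20201, chromosome 3 from 90669071 to 90670034) had 7 control reads and 19 CKO reads. S100a9 (Gene ID 20202, chromosome 3 from 90692630 to 90695721) had 13 and 64 reads. Together they made up 20 of the 19256 reads of the 10 members in the control, a share of 0.104% (interval 0.0635% to 0.160%), and 83 of 35823 in the CKO-labelled library, a share of 0.232% (0.185% to 0.287%). The summed pair was 2.77-fold higher after scaling, with an interval from 1.68 to 4.76. These shares and this fold rest on the subtracted floor, as deposited values were 41 and 69 for S100a8 and 47 and 114 for S100a9. S100a9 alone was 3.28-fold higher (1.79 to 6.50), although its 42.7 scaled reads would miss a minimum of 50. It lay 1.62 above the median of the genes tested in log2, and 0.67 above it with the values as deposited. S100a8 was 1.81-fold higher with an interval from 0.728 to 5.09, so a difference was not detectable for this gene at this depth, although equal totals put its log2 ratio at 1.16.

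The balance within the calprotectin pair was read next. Per kb of the longest coding transcript, S100a9 stood at 1.74 times the level of S100a8 in the control and at 3.15 times in the CKO-labelled library. The intervals of the ratio of their reads, 0.689 to 5.50 and 1.99 to 5.95, overlapped, and that of the control held 1. Deposited values of S100a9 and S100a8 lay closer, at 47 and 41 in the control and 114 and 69 in the CKO-labelled library.

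Neutrophil markers gave little to set beside the pair. Of 25 listed genes, 4 were in the table and 21, among them Ly6g, Elane, Mpo and Cxcr2, were not analysed here. The 4 summed to 80 control reads and 495 CKO reads, and their median log2 ratio was 1.67. The most abundant was Il1b, which monocytes and macrophages also make, at 33 and 283 reads, with a log2 ratio of 2.48. Csf3r, the receptor for the neutrophil growth factor G-CSF, had 22 and 177 reads, with a log2 ratio of 2.37, and Mmp9 had 9 and 28 reads. Ltf, a protein of neutrophil granules, went the other way, with 16 control reads, 7 CKO reads and a log2 ratio of -1.58, but its deposited values of 50 and 57 do not show this direction. Monocyte and macrophage markers, at a median log2 ratio of 2.61, were higher as well. The part of neutrophil number or of other myeloid cells in the S100a9 difference was not tested. In bulk kidney RNA more cells of a type and more RNA per cell cannot be told apart.

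Receptors and co-receptors of the released S100 proteins were all in the table, and their median log2 ratio was 0.99. Of the 10, 5 reached 2-fold higher and 1 reached 2-fold lower, beside 13.4% and 5.35% of all genes tested. Cd14, which hands ligands to TLR4 and marks monocytes, had 161 control reads and 1449 CKO reads, a log2 ratio of 2.58. Tlr4 had 231 and 736 reads (log2 ratio 1.08), and Ly96, the TLR4 co-receptor MD-2, had 43 and 141 (1.11). Ager, which encodes RAGE, was less abundant, with 23 and 87 reads and a log2 ratio of 1.30 (interval 0.66 to 2.07). Ly96 fell to 0.97 with a pseudocount of 10. The adaptor Myd88 had 430 and 1079 reads, with a log2 ratio of 0.74, which passed 2-fold at 1.16 under equal totals and at 1.28 in the deposited values. Cd14, Tlr4 and Ly96 are also made by myeloid cells, whose monocyte and macrophage markers had a median log2 ratio of 2.61, and the part of cell number in these values was not tested.

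Other receptors spread in both directions. Cd33, a lectin of myeloid cells whose human form binds S100A9, had 31 and 246 reads, with a log2 ratio of 2.37. Cd36, a scavenger receptor and fatty acid carrier that binds the calprotectin complex, was the receptor that reached 2-fold lower, with 23264 and 12578 reads and a log2 ratio of -1.47, or -0.88 with the values as deposited, short of 2-fold. Bsg, Nptn and Emb encode the immunoglobulin family proteins basigin, neuroplastin and embigin, of which basigin and neuroplastin bind S100A8 or S100A9. Their log2 ratios were -0.60, 0.15 and 0.89, with 17669 and 17501, 3543 and 5888, and 991 and 2752 reads, and Emb passed 2-fold at 1.31 under equal totals and at 1.45 in the deposited values. The listed receptors of S100 proteins therefore did not move as a block.

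Among the epithelial members, S100a6 stood apart. S100a6, also called calcyclin (Gene ID 20200, chromosome 3 from 90612894 to 90614414), had 270 control reads and 4231 CKO reads. It was 10.4-fold higher after scaling (9.24 to 11.9), a log2 ratio of 3.38, and ranked 102 from the top among the 17469 genes tested. Its share of the members' reads went from 1.40% (1.24% to 1.58%) to 11.8% (11.5% to 12.1%). The sum of the 6 epithelial members was 4380 scaled reads higher, and S100a6 alone was 2551 higher.

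S100a10 and S100a11, which encode the annexin-binding proteins p11 and calgizzarin, were higher by less than 2-fold with the main scaling. S100a10 (Gene ID 20194, chromosome 3 from 93555117 to 93564645) had 1979 control reads and 4760 CKO reads, 1.60-fold higher (1.52 to 1.69). S100a11 (Gene ID 20195, chromosome 3 from 93520496 to 93526288) had 2752 and 7658 reads, 1.86-fold higher (1.78 to 1.94). Of its 462 stretches of 50 bases, 190 also occur in transcripts of processed pseudogenes, of which Gm12854 had 13 and 38 reads and Gm7665 had 14 and 41, so its reads carry an uncertainty of assignment. S100a13 (Gene ID 20196, chromosome 3 from 90514233 to 90524581), which takes part in the release of fibroblast growth factor from cells, had 554 and 1263 reads, 1.52-fold higher (1.37 to 1.68). Under equal totals these genes all passed 2-fold, S100a13 with the lowest log2 ratio at 1.02, and in the deposited values the log2 ratios of S100a10, S100a11 and S100a13 were 1.26, 1.47 and 1.16. Counting intervals of these members and of S100a6 lay above a ratio of 1 with the main scaling.

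S100a1 and S100g, the members with the most reads in the control, were not higher. S100a1 (Gene ID 20193, chromosome 3 from 90511034 to 90514330) had 7339 control reads and 10623 CKO reads, a log2 ratio of -0.05 (interval -0.09 to -0.01). It turned to 0.37 with equal totals and to 0.53 in the deposited values. Against the median of the genes tested it fell by 0.07 with the main setting and by 0.06 in the deposited values. S100g (Gene ID 12309, chromosome X from 162961992 to 162964599) had 6203 and 6680 reads, a log2 ratio of -0.48 (-0.53 to -0.43), which equal totals moved to -0.06 and the deposited values themselves to 0.11. Their shares of the members' reads went from 38.1% to 29.7% for S100a1 and from 32.2% to 18.6% for S100g. The 6 epithelial members thus ran from lower to 10.4-fold higher.

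**Figure D2:**
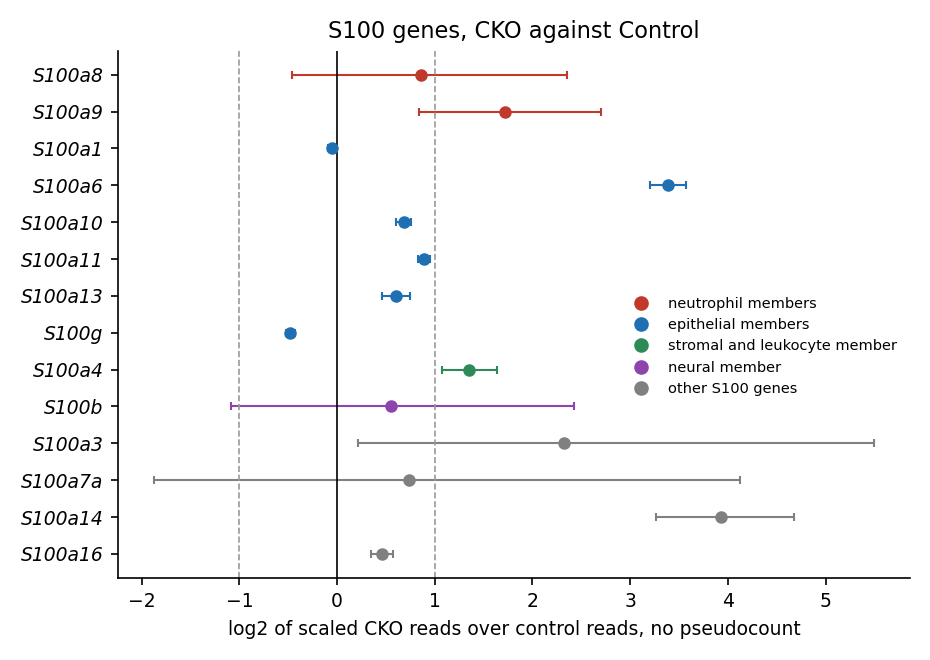
Log2 of scaled CKO reads over control reads without a pseudocount for the 10 members and 4 other S100 genes, coloured by the cells they are known from, with 95% Clopper-Pearson intervals. Dashed lines mark 2-fold. S100a6 at 10.4-fold lies to the right of the neutrophil members, whose intervals are wider, and S100g lies to the left of 0, where it stays with equal totals but not with the values as deposited.

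The contrast of the groups depended on which epithelial gene was set beside the neutrophil pair. The median log2 ratio was 1.21 for S100a8 and S100a9 and 0.64 for the 6 epithelial members, a difference of 0.56. With the values as deposited this difference was -0.21, and with a pseudocount of 10 it was 0.17. In scaled reads the epithelial members were higher by 4380 and the neutrophil members by 35.3. With the main setting S100a9 lay above the epithelial members other than S100a6, but its interval (1.79 to 6.50) overlapped that of S100a11 (1.78 to 1.94), and with the values as deposited it lay below S100a11, at log2 ratios of 1.26 and 1.47. S100a6 lay above both neutrophil members, and its interval started at 9.24-fold where that of S100a9 ended at 6.50-fold.

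Binding partners inside cells were set beside their S100 members. All 11 partner genes were in the table, with 0.17 as the median log2 ratio. Of these, 2 reached 2-fold higher and 1 reached 2-fold lower, beside 13.4% and 5.35% of all genes tested. Anxa2, whose protein forms a complex with S100A10 at the cell membrane, had 1852 control reads and 6908 CKO reads, 2.49-fold higher (2.36 to 2.62). Anxa1, a partner of S100A11, had 323 and 1728 reads, 3.57-fold higher (3.17 to 4.03). Anxa2 was thus higher by a larger fold than S100a10, and Anxa1 than S100a11. Ahnak, a large scaffold protein held by annexin A2 and S100A10, went from 4043 to 12110 reads and fell just short of 2-fold, with an interval from 1.93 to 2.07, and passed it at a log2 ratio of 1.42 under equal totals and of 1.58 in the deposited values.

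Partners named for S100A6 gave smaller ratios than it did. Cacybp, the calcyclin-binding protein, had 1925 and 2678 reads, with a log2 ratio of -0.11, which turned to 0.31 under equal totals and to 0.48 in the deposited values. Sugt1, a co-chaperone that binds S100A6, had 1662 and 2812 reads, with a log2 ratio of 0.17. Anxa11 had 1862 and 2877 reads, with a log2 ratio of 0.04. These partners thus ran from -0.11 to 0.17 with the main scaling while S100a6 was at 3.38, and annexin A2, which also binds S100A6, was higher as given above.

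Partners of the remaining members differed among themselves. Fgf1, carried out of cells with S100A13, had 5104 and 3651 reads. Its log2 ratio was -1.07, and -0.65 under equal totals and -0.47 in the deposited values, so it was not 2-fold lower there. Syt1, a further protein of that release complex, had 24 and 38 reads, with a log2 ratio of 0.07. Ryr2, a calcium channel bound by S100A1 in muscle, had 52 and 50 reads, with a log2 ratio of -0.63, which turned to 0.22 with the values as deposited. Myh9, the myosin bound by S100A4, had 9229 and 23602 reads, 1.70-fold higher, and Trp53, which S100B binds, had 729 and 1574 reads, 1.44-fold higher. With the values as deposited their log2 ratios were 1.35 and 1.09, past 2-fold, as Myh9 was with equal totals at 1.19.

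S100g was set beside the genes of renal calcium transport. Of 12 genes, 4 reached 2-fold higher and 0 reached 2-fold lower, beside 13.4% and 5.35% of all genes tested. Their median log2 ratio was 0.38. Trpv5, the calcium channel of the distal tubule, had 263 control reads and 2381 CKO reads, 6.04-fold higher (5.31 to 6.88). Trpv6 had 35 and 300 reads, 5.71-fold higher (4.02 to 8.36). Cyp24a1, which breaks down vitamin D, had 48 and 486 reads, 6.75-fold higher (5.01 to 9.28), and Cyp27b1, which activates it, had 251 and 784 reads, 2.08-fold higher (1.80 to 2.41). The channels and the vitamin D enzymes were thus higher while the calcium carriers inside the cell were not. Calb1, the larger calbindin, had 4618 and 4625 reads, with a log2 ratio of -0.58, close to the -0.48 of S100g, and it turned to 0.01 with the values as deposited.

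Hormone receptors and exit transporters of this pathway did not reach 2-fold in either direction with the main scaling. Vdr, Pth1r and Kl, which encode the receptors for vitamin D and parathyroid hormone and the FGF23 co-receptor klotho, had log2 ratios of -0.84, -0.92 and -0.88, or -0.25, -0.34 and -0.29 with the values as deposited. Reads were 7672 and 6417, 19416 and 15355, and 22019 and 17950. Slc8a1, Atp2b1 and Atp2b4, which move calcium out of the cell, had log2 ratios of 0.49, 0.33 and 0.43, from 1768 to 3733, 2227 to 4201 and 444 to 899 reads, and Slc8a1 passed 2-fold at 1.07 with the values as deposited. Casr, the calcium-sensing receptor, stood at 0.00, with 2496 and 3746 reads. Markers of the distal nephron and collecting duct had a median log2 ratio of 0.14, between -0.27 for Slc4a1 and 0.79 for Aqp2. They summed to 153134 and 285503 reads, of which Umod gave 90047 and 187056. This list covers more than the segment that takes up calcium through TRPV5, so it does not describe that segment alone. The 12 proximal tubule markers, at 769241 and 611420 reads in sum, had a median of -0.84, 0 of them 2-fold higher and 4 lower by 2-fold or more, between -1.62 for Slc22a6 and 0.41 for Slc5a12. This median was -0.42 under equal totals and -0.25 in the deposited values, of which those of Slc22a6 alone, 50363 and 24525, were 2-fold lower. Their part in the S100g value was not tested.

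S100a4, also called fibroblast-specific protein although leukocytes make it as well, lies between S100a3 and S100a6 (Gene ID 20198, chromosome 3 from 90603770 to 90606045). It had 134 control reads and 514 CKO reads, 2.56-fold higher (2.11 to 3.12). Of its 449 stretches of 50 bases, 253 also occur in a transcript of Gm42674, a gene without its own values here, so its reads carry an uncertainty of assignment. The 12 fibroblast markers had a median log2 ratio of 1.86, 10 of them 2-fold higher or more and 0 lower by as much, with 10982 and 49728 reads in sum. Fn1 had the most CKO reads, 9790 after 1809 in the control, and Mfap5 (6 and 85 reads) was the highest at a log2 ratio of 3.04 and Pdgfrb the lowest at 0.48. The place of Mfap5 rests on the subtracted floor, as its deposited values of 40 and 135 gave a smaller ratio than those of Col1a1, 322 and 2761. Mfap5 also reached the read minimum in the CKO-labelled library alone. The monocyte and macrophage markers, 17 of 20 in the table, had a median of 2.61, 14 of them 2-fold higher or more and 0 lower by as much, with 7563 and 57867 reads in sum. Cd74 was the most abundant at 2610 and 23956 reads, and Lyz2 was the highest at a log2 ratio of 3.66. S100a4 was thus higher by a smaller fold than the middle marker of either cell type, and the part of these cells in its value was not tested.

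S100b, the neural member (Gene ID 20203, chromosome 10 from 76253836 to 76261319), was close to the floor. It had 5 control reads and 11 CKO reads, 1.47-fold higher with an interval from 0.470 to 5.38, so a difference was not detectable at this depth. Of 10 Schwann cell and nerve markers, 7 were in the table, with a median log2 ratio of 0.67, 2 of them 2-fold higher or more and 0 lower by as much. Cdh19, the highest at a log2 ratio of 1.65, had 4 and 22 reads, but its deposited values of 38 and 72 fall short of 2-fold and below the ratio of Mbp, with 275 and 846. Cdh19 also reached the read minimum in the CKO-labelled library alone. Erbb3, which tubules also express, was the most abundant, at 3387 and 3842 reads, and the lowest, at -0.40. Of 10 adipocyte markers, the other cells known for S100b, 3 were in the table, and their median was -0.41, which turned to 0.01 under equal totals and to 0.18 in the deposited values. Thrsp was the lowest at -1.19, with deposited values of 113 and 101. Adipor2 led them with 3770 and 4268 reads, and the most specific ones, such as Adipoq and Plin1, were not analysed here.

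Injured tubule markers were read beside the epithelial members. Of 16 listed genes, 15 were in the table, 12 of them 2-fold higher or more and 0 lower by as much, with a median log2 ratio of 3.12, beside 3.38 for S100a6 and 0.60 to 0.89 for S100a10, S100a11 and S100a13. They summed to 29815 control reads and 514939 CKO reads, of which Spp1 gave 15360 and 412220. Lcn2 had the highest log2 ratio at 6.45, with 28 and 3797 reads, and Krt8 the lowest at 0.45. Monocyte and macrophage markers at 2.61 and fibroblast markers at 1.86 were higher as well, and the part of any of these cells in the S100a6 value was not tested.

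**Figure D3:**
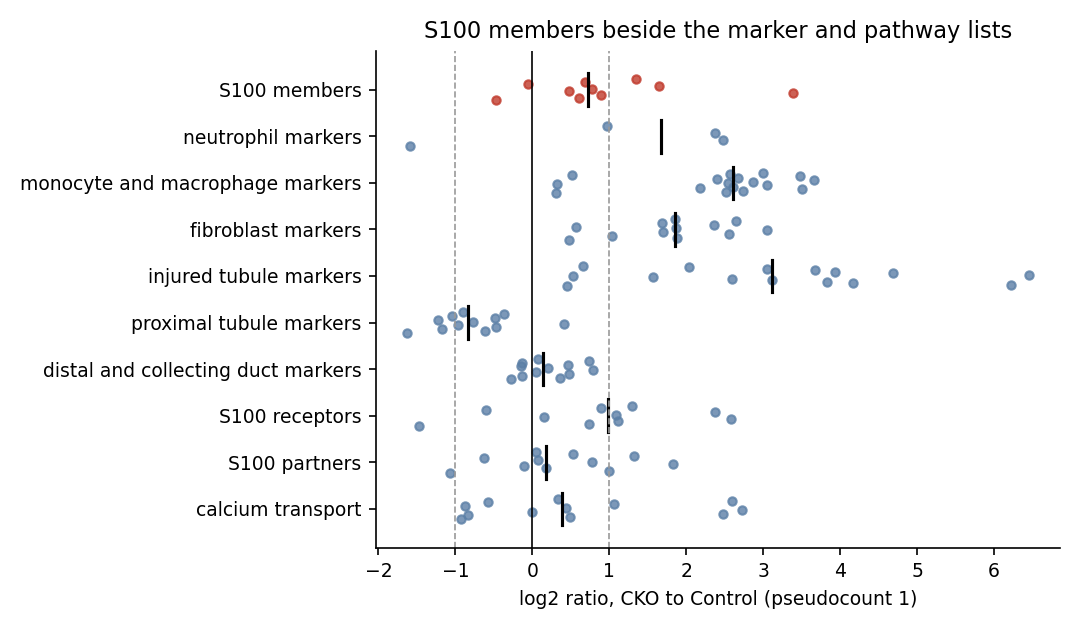
Log2 ratio of each gene of the S100 members and of 9 marker and pathway lists (points), with the list's median (vertical bar) and 2-fold as dashed lines. The S100 members have a median of 0.73, between the proximal tubule markers at -0.84 and the injured tubule markers at 3.12, and 1 member, S100a6, lies beyond 2.

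Outside the 10 members, the table held 4 other S100 genes. S100a14, an epithelial S100 gene, had 19 control reads and 434 CKO reads, 15.2-fold higher (9.63 to 25.5). With rank 49 from the top it lay above every member with the main setting, but its interval overlapped that of S100a6 (9.24 to 11.9), and with the values as deposited S100a6 lay higher, at log2 ratios of 3.81 and 3.17. Per kb of its longest transcript S100a14 reached 273 scaled reads against 3859 for S100a6. S100a16 had 988 and 2033 reads, 1.37-fold higher (1.27 to 1.48), with a log2 ratio of 1.03 in the values as deposited. S100a3 had 2 and 15 reads, a ratio of 5 with an interval from 1.16 to 45.1 (log2 ratio 1.87, and 0.83 with the values as deposited), and S100a7a had 2 and 5 reads, a ratio of 1.67 with an interval from 0.273 to 17.5. S100pbp, which encodes an S100P-binding protein and is not an S100 gene, had 713 and 1469 reads, with a log2 ratio of 0.46.

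Along chromosome 3 the S100 genes sit in a cluster, and neighbours did not share a ratio. S100a1 on the minus strand and S100a13 on the plus strand stood at log2 ratios of -0.05 and 0.60. Their RefSeq gene models overlap by 98 bases on opposite strands, and whether the counting used strand was not given in the sources used here, so reads in the overlap cannot be told apart. The S100a13 start site used for its promoter, 90514435, lies inside its gene model, with 104 bases between it and the start site of S100a1. S100a14 and S100a16 follow at 3.86 and 0.46, and S100a4 and S100a6 at 1.35 and 3.38. The 7 other genes within 200 kb of the span from S100a1 to S100a9 that passed the read minimum had a median log2 ratio of 0.32, from 0.03 for Npr1 to 0.56 for Slc27a3. S100a11 and S100a10 lie about 3 Mb further on at 0.89 and 0.68. The 3 other genes around them ran from -0.53 for Tchh to 1.13 for Gm5278, with a median of -0.37. Gm5278 had 8 and 28 reads (interval 0.05 to 2.57) and reached the read minimum in the CKO-labelled library alone.

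**Figure D4:**
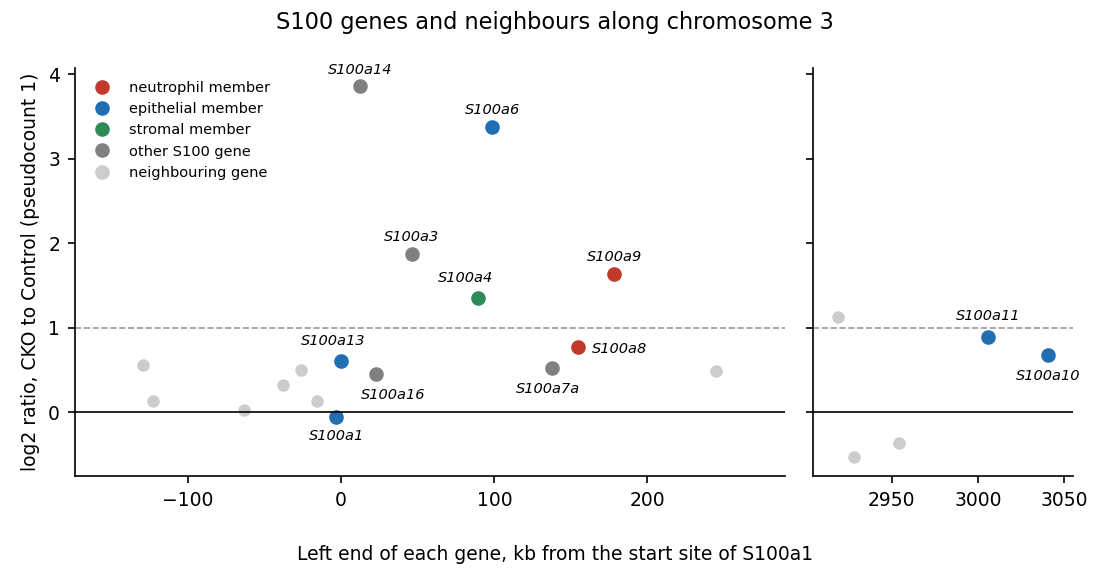
Log2 ratio of S100 genes and of other genes with at least 10 scaled reads within 200 kb, against the distance in kb of each gene's left end from the start site of S100a1 on chromosome 3, the right panel showing the pair S100a11 and S100a10. S100a14 at 3.86 and S100a6 at 3.38 stand above neighbours such as S100a16 at 0.46 and S100a4 at 1.35.

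By level, the order of the members changed between the libraries. In the control, S100g led at 12923 reads per kb of the longest coding transcript, with S100a1 next at 10840.5. S100a11 followed at 5386 reads per kb, S100a10 at 2889 and S100a13 at 775, and then S100a6 at 369 and S100a4 at 269. S100a9 at 25.0, S100a8 at 14.4 and S100b at 3.37 reads per kb closed the order. The neutrophil and neural members were thus the least abundant of the 10 by this measure. In the CKO-labelled library, S100a1 led at 10461 scaled reads per kb, S100a11 came next at 9991 and then S100g at 9278. S100a10 stood at 4633 scaled reads per kb, S100a6 at 3859, S100a13 at 1178 and S100a4 at 688. S100a9 at 82.2, S100a8 at 26.1 and S100b at 4.94 again came last. S100g went from place 1 to place 3 and S100a6 from place 6 to place 5, ahead of S100a13. The lead of S100g rests on the transcript lengths used. By reads alone S100a1 led in both libraries, with 7339 against 6203 for S100g in the control. In the CKO-labelled library it had 10623 against 7658 for S100a11. Counting intervals of neighbours in this order overlapped in the control for S100a9 with S100a8 and for S100a8 with S100b, and for no neighbours in the CKO-labelled library. All members together took 0.0496% of reads in the control (0.0489% to 0.0503%) and 0.0822% in the CKO-labelled library (0.0813% to 0.0830%).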

How the data were processed

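Whole-kidney RNA of mice was sequenced in 2 libraries, 1 per group, with a stranded mRNA kit. Alignment with STAR 2.7.3a, counting with HTSeq and normalization with DESeq2 were done by the authors, and the submitters' processing notes name the build mm10. The deposited values are named normalized counts, but as whole numbers without a standard unit the deposited values were recorded as a score. That they hold reads plus a constant of each column is an inference from their lowest values, and the counting intervals hold only as far as it does. The column minimum minus 1 was subtracted, CKO reads were scaled by the median gene ratio, and log2 ratios had a pseudocount of 1. A gene needed 10 scaled reads in either library and counted as higher or lower from 2-fold on, without a p-value. A ratio with 3 or fewer reads in a library is given with its interval. List medians and sums used every listed gene in the table. Counts of list genes that reached 2-fold stand beside 13.4% higher and 5.35% lower over all genes tested.

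Members and lists were chosen with earlier results of these data known. Named genes were the members, other S100 genes, Zc3h12b, all receptors, partners and calcium transport genes, and of other lists the gene with the most CKO reads, the highest and lowest ratio and defining markers. Single values of some list genes are not reported here, and the counts, sums and medians of their lists include them. Pseudogenes, neighbouring genes and S100pbp were named for their sequence, position or name. Alternatives were pseudocounts of 0.1 and 10, no minimum or 50 reads, 1.5-fold and 4-fold, equal totals, equal upper quartiles, the column minimum as floor and the values as deposited. Transcript lengths and shared stretches of 50 bases came from GENCODE M21, positions and promoters from RefSeq GRCm38.p6. The steps were tested on simulated data. Python 3.11.15, numpy 2.4.6, pandas 2.3.3, scipy 1.17.1 and matplotlib 3.10.9 were used.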

Additional observations from a re-analysis of the deposited data

How the results depend on the processing

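The median of the 10 members ran from 0.64 with a pseudocount of 10 to 1.21 with the values as deposited, and that of the neutrophil pair from 0.81 with a pseudocount of 10 to 1.61 with equal totals. Genes that reached 2-fold higher and lower numbered 2334 and 934, 71.4% higher. A 1.5-fold limit gave 3801 and 2423 with 7 members higher, and a 4-fold limit 749 and 166 with 1 member higher, as the limits themselves bring about. A minimum of 50 scaled reads left 617 genes lower because it tests fewer genes, and 2 members higher, as S100a9 had 42.7 scaled reads. With equal totals there were 3870 and 437 (89.9% higher), 7 members higher and an epithelial median of 1.06. The values as deposited gave 3574 and 131 (96.5% higher), 6 members higher and an epithelial median of 1.21. Both settings raise the median of all genes tested, and apart from that the cause was not tested. Settings added after the values were seen left the epithelial median at 0.60 without S100a6 and the member median at 0.68 over the 7 members with at least 20 control reads. Of 60 single genes and lists, 8 changed sign in some setting, each from a log2 ratio between -1 and 1. Single genes of the marker lists were not among the 60. Among those, Ltf at -1.58 and Trac at -0.44 also turned, with deposited values of 50 and 57 and of 133 and 159.

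No paired analysis was possible because 1 library stood for each group. Depth limits S100a8, S100b, S100a3 and S100a7a, which had 7 or fewer control reads. Their ratios and those of S100a9, S100a14 and markers with few control reads rest on the subtracted floor: with the values as deposited, S100a8 lay 0.14, S100b 0.04, S100a9 0.67 and S100a14 2.57 above the median of the genes tested, against 0.75, 0.45, 1.62 and 3.84 with the main setting.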

Other observations

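Calcium-binding genes outside the S100 family were read for comparison. Of 19 other EF-hand genes, 17 were in the table, with a median log2 ratio of 0.21, and 2 reached 2-fold higher and 1 reached 2-fold lower, beside 13.4% and 5.35% of all genes tested. Rcn1, which encodes a calcium-binding protein of the endoplasmic reticulum, was the highest at 1.25, from 402 control reads to 1435 CKO reads. Pvalb, which encodes parvalbumin of the distal convoluted tubule, was the lowest at -1.17, from 1055 to 704 reads, and its deposited values of 1089 and 754 fall short of 2-fold. Of 7 genes with an S100 domain fused to a longer protein, 2 were in the table, and Tchh, the more abundant, had 471 and 488 reads, with a log2 ratio of -0.53, while Tchhl1 had 57 and 66 reads, with a log2 ratio of -0.37.

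Further cell types of the kidney were read beside the members. The 10 T and dendritic cell markers had a median of 1.93. Of these, 9 were 2-fold higher or more and 0 lower by as much, beside 13.4% and 5.35% of all genes tested. They ran from -0.44 for Trac to 2.60 for Ccl22 (3 and 35 reads, interval 1.29 to 5.30). Cd209a had the most CKO reads, 136 after 24 in the control. Ccl22, Cd3e (6 control reads), Cd8a (8), Flt3 (8) and Xcr1 (7) reached the read minimum in the CKO-labelled library alone. With so few control reads they could pass it only by being higher there. The deposited values of Trac, 133 and 159, do not show its direction, and those of Ccl22, 37 and 85, gave a smaller ratio than those of Cd209a, 58 and 186. The 8 podocyte and vessel markers had a median of -0.14 and 0 reached 2-fold in either direction. Pecam1 had the most CKO reads, 2750 after 1919 in the control, and Synpo was the highest at 0.28.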
